A study of Mus musculus with 6 samples.

Results

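The cadherin superfamily was followed in whole embryonic mouse lung at E14.5. Its members were taken as the array features annotated with a single gene symbol of the cadherin (Cdh, Cdhr), protocadherin (Pcdh), desmocollin (Dsc), desmoglein (Dsg), Fat, Dachsous (Dchs) or Celsr series, taking for each gene the feature of highest mean signal. This gave 77 genes of the 19946 tested, from 95 features. Of the 115 protein-coding mouse genes of the RefSeq annotation of GRCm38.p6 whose symbols fit the rule, 77 thus had a feature of their own, 15 were represented only on features that carry several symbols (Dsg1a and the alpha cluster of protocadherins), and the other 23 (the gamma cluster, Dsc1 and Dchs2) were not analysed here.

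Lungs of 3 control embryos carried Shh-Cre, a recombinase under control of the Shh gene, which is active in the endoderm that forms the lung epithelium. Lungs of 3 mutant embryos carried the same Cre together with floxed alleles, on both chromosomes, of Foxp1, Foxp2 and Foxp4, which encode forkhead transcription factors. Both groups were of mixed C57BL/6 and 129X1 strain, and the mutants' genotype label repeats Foxp1 in the place of Foxp2, which was read from the title of the series. The question behind the comparison was what the Foxp factors contribute to lung endoderm identity, and the labels give each lung as a separate sample.

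Cadherins are adhesion proteins of the cell surface whose extracellular repeats bind calcium. Classical cadherins join like cells at adherens junctions and bind catenins inside the cell, desmosomal cadherins tie neighbouring epithelial cells to the keratin network, and the giant Fat, Dachsous and Celsr cadherins take part in planar polarity and tissue growth. Protocadherins adhere more weakly and are best known from the nervous system, where the clustered group gives neurons their surface identity. In the lung, E-cadherin (Cdh1) belongs to the epithelium, VE-cadherin (Cdh5) to the endothelium and cadherin 11 (Cdh11) to mesenchyme.

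Of the targeted genes, Foxp2 was lower in the mutants by 0.95 ± 0.05 (SE, n = 3 per group) on the log2 scale and Foxp4 by 0.64 ± 0.10, while Foxp1 differed by -0.31 ± 0.08 and did not pass (limma adjusted p = 4.75e-05, 0.00591 and 0.0661). Whether the array's probes for these genes lie in the deleted exons is not known here. Values throughout are log2 array signals and differences are mutant minus control, with the SE of the fit. A gene passed, or rose or fell, where its limma p, adjusted over all 19946 genes, was under 0.05. Marker lists gave the tissue its context. Of 8 lung epithelial markers 7 were lower in mutants and 0 higher (median difference -0.68), their summed linear signal lying between 9987 and 10730 in controls and, in mutants, between 3546 and 4490. Of 6 smooth muscle markers 5 were lower and 1 higher (median -1.70, summed signal 9042 to 9449 against 4409 to 5427). Of 8 endothelial markers, Cdh5 among them, 0 passed and 2 reached an unadjusted p under 0.05 in limma (median -0.08, 11180 to 11240 against 9986 to 11440). Of 8 heart muscle markers 0 passed in limma and 0 reached an unadjusted p under 0.05, but their summed signal was 7079 in mutant 1, 1265 in mutant 2 and 1187 in mutant 3 against 2955 to 3151 in controls. In the other lists 0 of 6 mesothelial markers were lower and 1 higher, 1 of 6 cartilage markers was lower, 1 of 6 measured neural crest and neuronal markers was lower, 2 of 8 intestine and kidney markers were higher, and of 4 measured blood cell markers 1 was higher and 1 lower. In whole lung, fewer cells of a type and less RNA per cell cannot be told apart, and the part of these markers in the cadherin values was not tested.

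Of the 77 members, 16 passed the threshold (20.8%), against 7.66% of all genes tested. In mutant lungs 9 were higher and 7 lower, where 3.84% of all genes were higher and 3.83% lower. The rises were Pcdh7, Pcdh10, Cdh10, Dsc3, Pcdh20, Dsc2, Cdh13, Pcdh19 and Pcdh18. The falls were Cdh8, Celsr1, Cdh4, Fat1, Celsr2, Dsg2 and Pcdh11x. Among them Pcdh7, Pcdh10, Cdh10 and Cdh8 changed at least 2-fold, as 0.958% of all genes did. The median over all members was -0.05, close to the -0.01 of all genes, with differences from -1.58 to 1.46, of which 29 were above 0 and 48 below. The mutant values lay wholly above or wholly below the control values for 31 members (40.3%), against 25.9% of all genes. An unadjusted p under 0.05 was reached by 28 members, and by 19.8% of all genes. With each array left out in turn the count of changed members lay between 9, without control 2 and equally without control 3, and 15, and 9 of the 16 passed in all 6 of these fits.

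**Figure D1:**
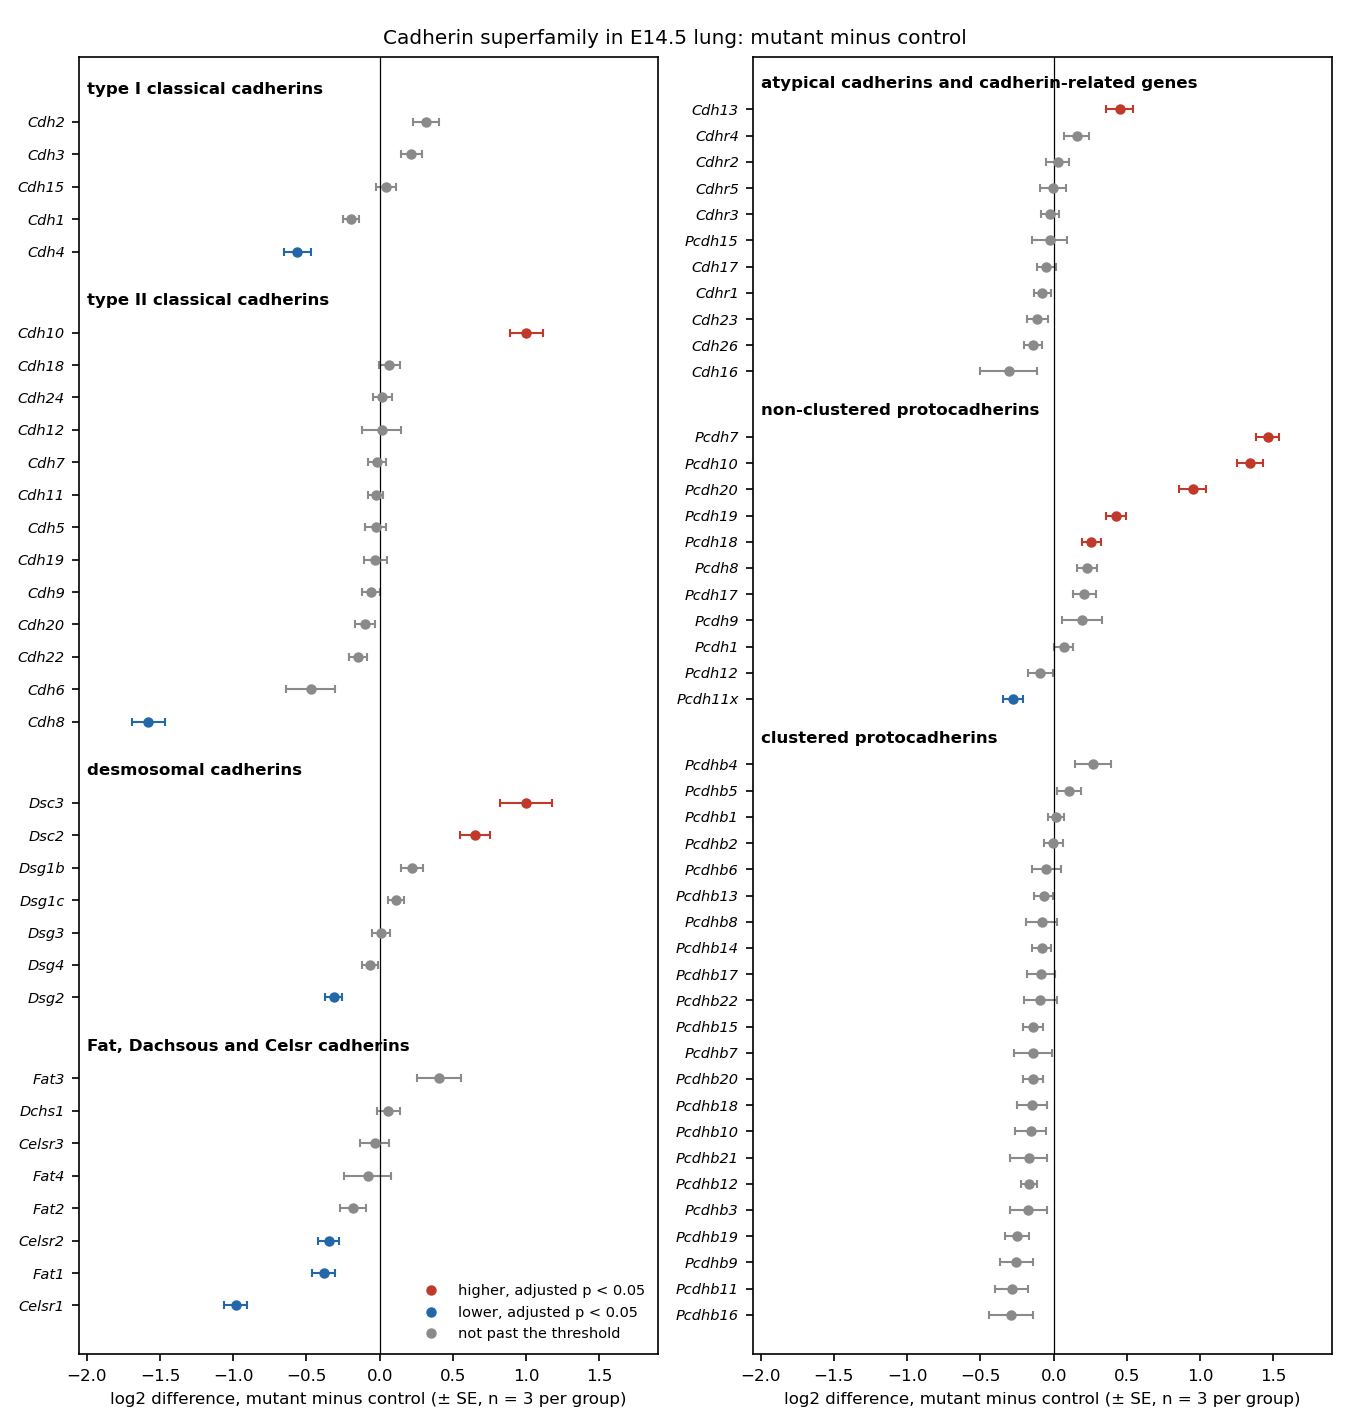
Log2 difference between mutant and control lungs for each of the 77 members, grouped by subfamily; points are the differences, bars the SE of the fit with 3 arrays per group, red and blue mark members past the adjusted p of 0.05. Of the non-clustered protocadherins 6 of 11 passed, and of the clustered protocadherins 0 of 22, against 7.66% of all genes.

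Members were also counted by their signal in the controls. Of the 27 members above the array median on every control array, 9 passed (33.3%), 2 higher and 7 lower, against 10.4% of all genes of that kind. Of the other 50 members 7 passed, all of them higher, against 3.98% of all genes of that kind, of which 223 were higher and 119 lower. Because this split uses the controls alone, a gene that rose from a low control value, such as Pcdh10, counts among the latter, and the difference in direction was not tested. A gene near the floor of the array has little room to fall, so members that did not pass there are not shown to be unchanged.

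**Figure D2:**
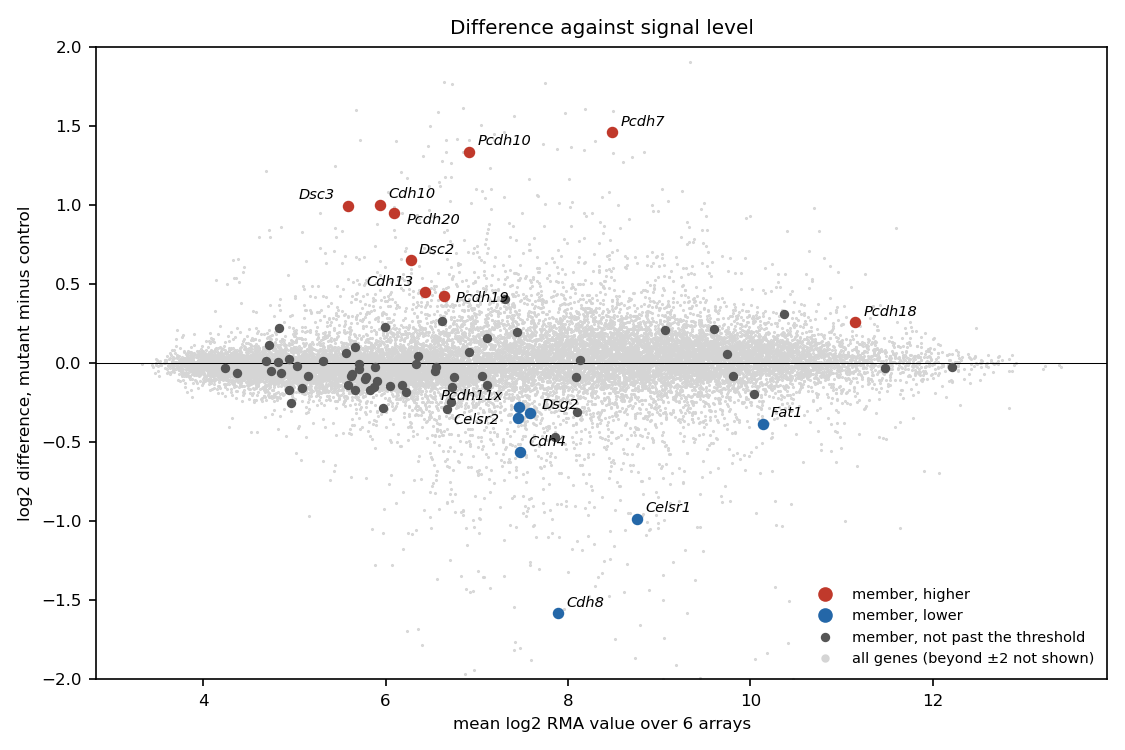
Difference between mutant and control lungs (vertical axis, log2) against the mean value over 6 arrays (horizontal axis, log2) for all genes within 2 log2 units of 0 (light grey) and for the members (dark grey, red and blue). The changed members of low signal, such as Dsc3, Cdh10 and Pcdh20, all lie above 0, and the falls start at higher signal.

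The non-clustered protocadherins carried the most changes. Of 11 members 5 rose, 1 fell and the other 5 did not pass (54.5% called, against 7.66% of all genes). The median was 0.23 against -0.01 over all genes, and 7 lay wholly above the controls, as 13.4% of all genes did. Pcdh7, a protocadherin of the delta-1 group, read 7.64, 7.85 and 7.77 in controls 1 to 3 against 9.15, 9.15 and 9.34 in mutants 1 to 3. It was the largest rise of the superfamily, 2.75-fold (1.46 ± 0.08 SE, limma adjusted p = 4.75e-05), with more than 1 log2 unit between the highest control and the lowest mutant.

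Pcdh10, a delta-2 protocadherin, read 6.27, 6.18 and 6.30 in controls against 7.45, 7.54 and 7.78 in mutants. It rose 2.53-fold (1.34 ± 0.09, adjusted p = 0.000119), from below the array median in every control to above it in every mutant. Pcdh20 read 5.49, 5.61 and 5.74 in controls against 6.55, 6.71 and 6.42 in mutants. It rose 1.93-fold (0.95 ± 0.09, adjusted p = 0.000781) and stayed below the array median. These 3 protocadherins passed with any single array left out.

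The 250 bases before the annotated start of Pcdh10 and of Pcdh20 are shown because these are the changed members for which the RefSeq table (GRCm38.p6) lists a window that adjoins the start of the gene. They lie at chr3:45378148-45378397 on the + strand and at chr14:88471397-88471646 on the - strand, each written 5′ to 3′ in the direction of the gene. Both were searched on either strand for TGTTTA, the core of the forkhead recognition sequence, and for CAGGTG, an E-box of the kind bound by Snai and Zeb factors; these strings share no overlap, and no letter is in capitals because neither was found.
Pcdh10: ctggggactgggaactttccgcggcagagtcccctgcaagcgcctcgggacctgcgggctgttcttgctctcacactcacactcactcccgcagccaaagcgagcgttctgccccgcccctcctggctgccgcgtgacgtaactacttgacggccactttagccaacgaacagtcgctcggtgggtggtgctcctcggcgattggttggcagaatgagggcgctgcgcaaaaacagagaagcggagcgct
Pcdh20: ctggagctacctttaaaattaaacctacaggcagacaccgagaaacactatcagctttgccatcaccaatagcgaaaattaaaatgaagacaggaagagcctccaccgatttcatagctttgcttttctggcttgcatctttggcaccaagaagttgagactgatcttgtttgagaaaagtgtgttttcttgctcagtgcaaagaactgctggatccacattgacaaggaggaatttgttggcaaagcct
Among all 19827 windows of this kind, 13.1% hold TGTTTA and 17.2% hold CAGGTG. Of the 9 members with such a window, Cdhr1 and Pcdh17 hold TGTTTA and Cdhr1 and Cdhr4 hold CAGGTG, and none of these genes passed the threshold. The windows differ in base composition, with 63.2% G and C in that of Pcdh10 and 42.4% in that of Pcdh20.

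The other changes among these protocadherins were smaller. Pcdh19, an X-linked delta-2 protocadherin known from an inherited epilepsy, read 6.45, 6.32 and 6.50 in controls against 6.79, 6.93 and 6.82 in mutants, having risen 1.34-fold (0.42 ± 0.07, adjusted p = 0.00901). Pcdh18, also of the delta-2 group, read 10.99, 11.00 and 11.05 in controls against 11.32, 11.33 and 11.17 in mutants. Its rise of 0.26 ± 0.06 passed narrowly (adjusted p = 0.0488) and, of the fits with an array left out, only without mutant 3 (adjusted p 0.0313 there and up to 0.173 without control 2 elsewhere). Each mutant array of Pcdh18 was higher than any control, as for 13.4% of all genes, and these are the same values that gave the call.

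Pcdh11x, the other X-linked member, went down. It read 7.53, 7.58 and 7.70 in controls against 7.30, 7.28 and 7.41 in mutants (-0.28 ± 0.07, 1.21-fold, adjusted p = 0.0481). This call was lost with each of the 6 arrays left out in turn, at adjusted p from 0.0561 without mutant 3 to 0.186 without control 3. Xist, read from the same arrays, placed control 3 and mutant 3 as male and the other 4 embryos as female, so both groups held the sexes in the same proportion. With sex as a covariate, Pcdh18 no longer passed (adjusted p = 0.0813), and Pcdh19 and Pcdh11x stayed past the threshold.

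Of the members of this group that did not pass, Pcdh12 alone differed by less than 0. Pcdh17 read 9.01, 8.80 and 9.07 in controls against 9.15, 9.18 and 9.18 in mutants (0.21 ± 0.08, adjusted p = 0.171). Pcdh8, the paraxial protocadherin of early mesoderm, differed by 0.23 ± 0.07 (adjusted p = 0.109), Pcdh9 by 0.19 ± 0.14 and Pcdh1, known from airway epithelium, by 0.07 ± 0.07. All 5 delta-2 protocadherins lay wholly above the controls, as 13.4% of all genes did, and 3 of them passed, as 7.66% of all genes did. Of the 4 delta-1 genes 1 rose, 1 fell and 2 did not pass. The delta groups were not among the listed subfamilies, and the contrast between them was not tested. Pcdh12, an endothelial protocadherin, differed by -0.09 ± 0.08 (adjusted p = 0.65), beside the endothelial markers described above. Of these, Pcdh8, Pcdh9, Pcdh1 and Pcdh12 were named after their values were seen.

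**Figure D3:**
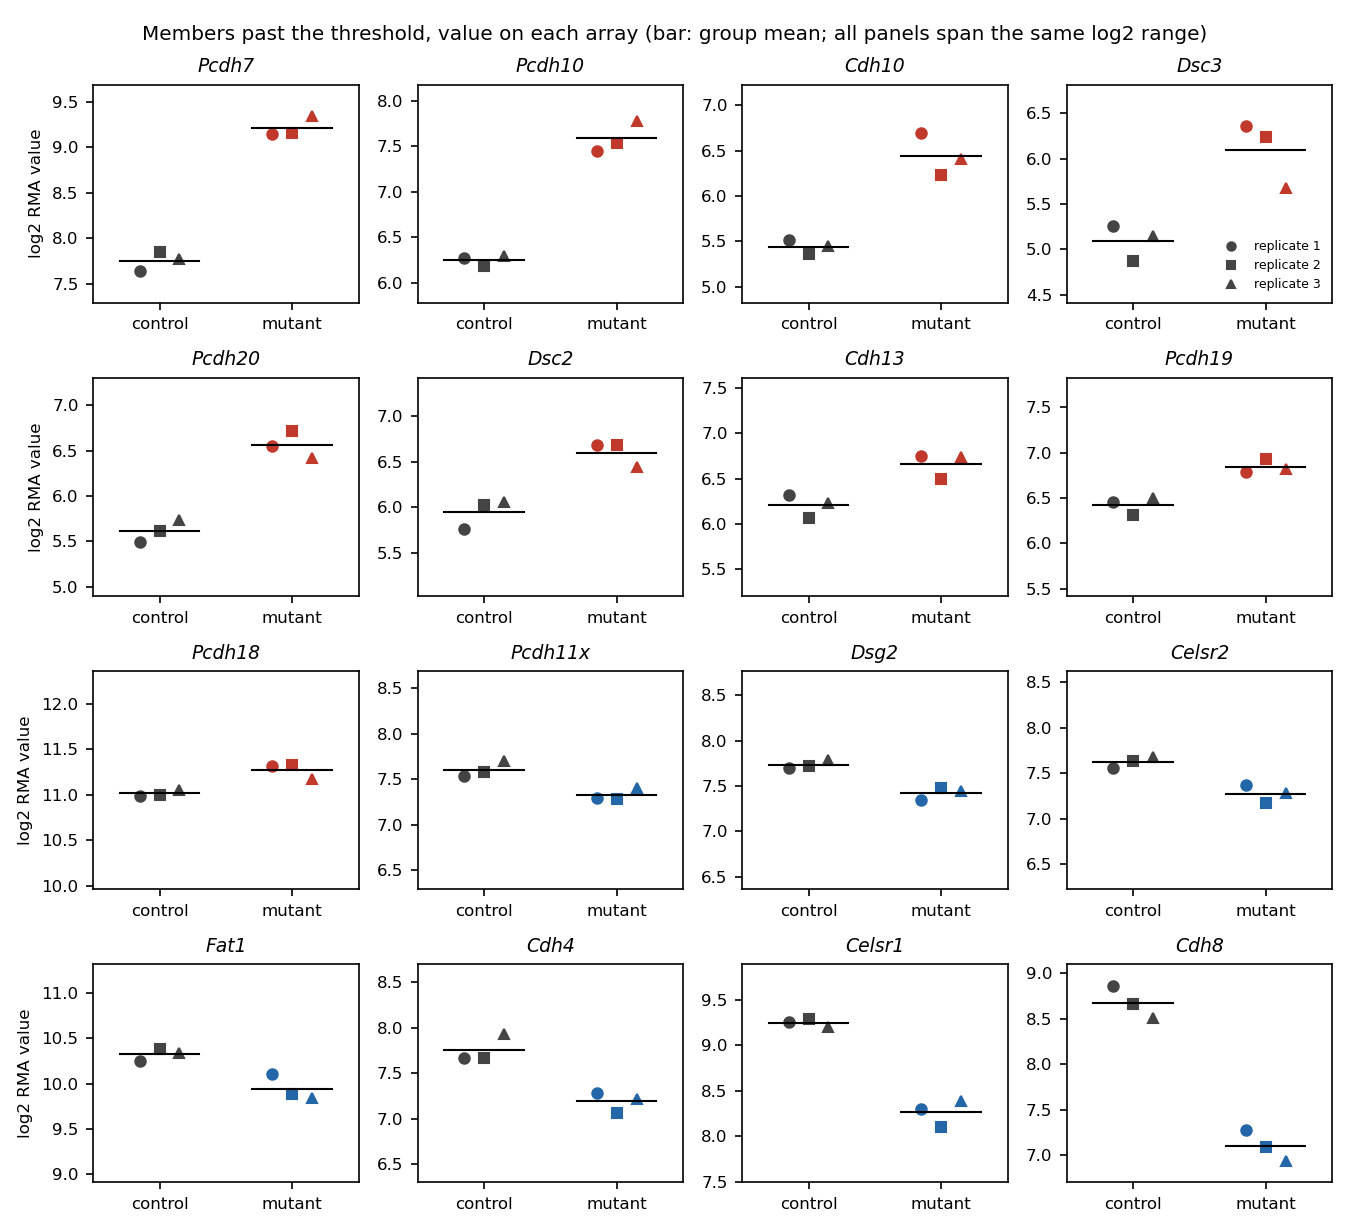
Value of each of the 16 changed members on each of the 6 arrays (log2, vertical axis), with controls in grey, mutants in red for rises and blue for falls, bars at the group means and all panels on the same log2 span. The panels were chosen by the adjusted p of these same values, so that the mutant points clear the control points in all 16 is no separate result. Of all genes 25.9% do so. The margin is widest in Pcdh7, Cdh8 and Pcdh10 and narrowest in Pcdh18 and Pcdh11x.

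No clustered protocadherin passed. Of these, the genes of the beta cluster, Pcdhb1 to Pcdhb22, had features of their own, and 0 of the 22 passed in limma, against 7.66% of all genes. An unadjusted p under 0.05 was reached by 3 (Pcdhb11, Pcdhb12 and Pcdhb19), and by 19.8% of all genes. Their differences were small, from -0.29 (Pcdhb16) to 0.27 (Pcdhb4), with a median of -0.14, and 19 of 22 were below 0, while 10369 of all 19946 genes were. The smallest adjusted p among them was 0.108, for Pcdhb12, which read 4.99, 5.05 and 5.03 in controls against 4.82, 4.85 and 4.89 in mutants. Only Pcdhb15 and Pcdhb8 lay above the array median on every control array. Of all genes not above it on every control array 3.98% passed, so 0 of 22 is near that share. Of these 8587 genes 5229 were below 0, with a median difference of -0.02. Pcdhb15 read 7.19, 7.25 and 7.09 in controls against 7.11, 6.95 and 7.04 in mutants, and Pcdhb8 read 7.02, 7.10 and 7.17 against 6.77, 7.14 and 7.15, so the groups overlapped for both. Pcdhb22 read 6.65, 6.89 and 6.84 in controls against 6.46, 6.80 and 6.86 in mutants. These genes are close copies of each other in a single array of neighbours, so their probes may read more than 1 of them and the 22 values are not independent. Pcdhb11, Pcdhb12 and Pcdhb19 were named after their values were seen.

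Among the type I classical cadherins, the main partners of catenins at adherens junctions, 1 of 5 members fell and 0 rose. The share called was 20.0%, against 7.66% of all genes, and the median was 0.04. The fall was that of Cdh4, R-cadherin, a gene of neural tissue and muscle, from 7.66, 7.67 and 7.93 in controls to 7.29, 7.07 and 7.22 in mutants. This was 1.48-fold (-0.56 ± 0.09, adjusted p = 0.00901), and it passed with any array left out. The E-, N- and P-cadherin genes each had mutant values clear of the controls, as 25.9% of all genes did, without passing the threshold.

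E-cadherin (Cdh1), the adhesion protein of epithelia, read 10.12, 10.15 and 10.14 in controls against 9.92, 9.98 and 9.93 in mutants. The difference of -0.19 ± 0.05 (1.14-fold, adjusted p = 0.0684) was smaller than that of each of the 7 epithelial markers that fell, of which Epcam, another epithelial adhesion gene, showed the least (-0.33 ± 0.08, adjusted p = 0.0384), though the difference between these genes was not tested. Without mutant 2 Cdh1 passed narrowly (adjusted p = 0.0488). N-cadherin (Cdh2), of mesenchyme, nerve and heart, read 10.27, 10.18 and 10.17 in controls against 10.62, 10.62 and 10.32 in mutants (0.31 ± 0.09, 1.24-fold, adjusted p = 0.0812). It passed only without mutant 3, its lowest mutant value (0.41, adjusted p = 0.0143). Its values were nearly equal in mutants 1 and 2 and lower in mutant 3, while the summed heart muscle signal of these arrays was 7079, 1265 and 1187. The part of that signal in the Cdh2 values was not tested.

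P-cadherin (Cdh3), which accompanies E-cadherin in many epithelia, read 9.55, 9.49 and 9.44 in controls against 9.62, 9.66 and 9.84 in mutants (0.22 ± 0.07, adjusted p = 0.13). Cdh3 and Cdh1 are direct neighbours in the genome, and their differences had opposite signs, neither past the threshold. Cdh15, M-cadherin of skeletal muscle (named with its value known), differed by 0.04 ± 0.07.

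In the type II classical cadherins, relatives with expression tied to particular tissues, 1 of 13 members rose, 1 fell and 11 did not pass. The share called was 15.4%, against 7.66% of all genes, and the median was -0.03. Cdh8, best known from the brain, read 8.86, 8.66 and 8.51 in controls against 7.27, 7.08 and 6.93 in mutants. It was the largest fall of the superfamily, 2.99-fold (-1.58 ± 0.11, adjusted p = 0.000158), and more than 1 log2 unit separated the groups. Cdh10, also a neural type II cadherin, read 5.51, 5.36 and 5.45 in controls against 6.70, 6.23 and 6.41 in mutants. It rose 2.00-fold (1.00 ± 0.11, adjusted p = 0.0016). Cdh8 and Cdh10 both passed with any single array left out.

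The cadherin genes directly beside them did not pass. Cdh11, which adjoins Cdh8, read 12.21, 12.22 and 12.22 in controls against 12.20, 12.18 and 12.19 in mutants, so the mutants lay just below the controls (-0.03 ± 0.05, adjusted p = 0.839). Cdh5, the next gene after Cdh11, read 11.48, 11.48 and 11.52 in controls against 11.37, 11.41 and 11.61 in mutants (-0.03 ± 0.07, adjusted p = 0.89). Cdh9 and Cdh12, which flank Cdh10, differed by -0.06 ± 0.06 and 0.01 ± 0.13, both read well below the array median, and both were singled out with their values known.

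Cdh24 read 8.05, 8.09 and 8.23 in controls against 8.10, 8.18 and 8.15 in mutants, with overlap. Cdh6, known from kidney development and singled out with its value known, read 8.06, 8.14 and 8.07 in controls against 7.94, 7.18 and 7.73 in mutants (-0.47 ± 0.17, adjusted p = 0.158). All 3 mutants were lower, with a wide spread among them (SD 0.39, n = 3, against 0.04 in controls), and without mutant 1 the adjusted p was 0.0408. Cdh19, of Schwann cell precursors and named with its value known, differed by -0.03 ± 0.08 and read close to the floor of the array, at 4.25 on average in controls.

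The desmosomal cadherins split. Of 7 members Dsc3 and Dsc2 rose, Dsg2 fell and 4 did not pass (42.9% called, against 7.66% of all genes, median 0.11). Dsc3, desmocollin of stratified and basal epithelium, read 5.26, 4.87 and 5.14 in controls against 6.35, 6.24 and 5.68 in mutants. Its rise of 1.995-fold (0.997 ± 0.177, adjusted p = 0.0128) was smallest in mutant 3 and did not pass without control 2 (adjusted p = 0.0555) or control 3 (adjusted p = 0.0528). Dsc2, the desmocollin of simple epithelia and heart, read 5.76, 6.02 and 6.06 in controls against 6.69, 6.68 and 6.44 in mutants (0.65 ± 0.10, 1.57-fold, adjusted p = 0.00714) and passed with any array left out.

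Dsg2, the desmoglein of simple epithelia and heart, went the other way. It read 7.70, 7.72 and 7.79 in controls against 7.34, 7.48 and 7.44 in mutants (-0.32 ± 0.06, 1.24-fold, adjusted p = 0.0176). The call was lost when any single control was left out (adjusted p 0.0548, 0.0747 and 0.091 for controls 1, 2 and 3). Dsc3 and Dsc2 are direct neighbours, and Dsg2 lies at the far end of the same run of desmosomal genes. Between them, Dsg1c (0.11 ± 0.06) and Dsg1b (0.22 ± 0.08) lay wholly above the controls without passing, and Dsg4 (-0.06 ± 0.05) and Dsg3 (0.01 ± 0.06) overlapped. All 4 are genes of skin and other stratified epithelia, read near the floor of the array, were named after their values were seen, and Dsg1b and Dsg1c are near-identical copies whose reading can be mixed. Dsc2 read nearly the same in mutants 1 and 2, and Dsg2 read lowest in mutant 1, the array with the highest heart muscle signal; the part of that signal in their values was not tested.

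Of the 8 giant cadherins Celsr1, Celsr2 and Fat1 fell and 0 rose (37.5% called, against 7.66% of all genes, median -0.13). Celsr1, a multipass receptor of the core planar polarity pathway, read 9.25, 9.29 and 9.20 in controls against 8.30, 8.10 and 8.39 in mutants. It fell by 0.98 ± 0.08 on the log2 scale, or 1.98-fold (adjusted p = 0.000313), and passed with any array left out. Its relative Celsr2 read 7.56, 7.63 and 7.68 in controls against 7.37, 7.17 and 7.29 in mutants (-0.35 ± 0.07, 1.27-fold, adjusted p = 0.0225). Celsr2 lost its call without control 1 (adjusted p = 0.0525), control 2 (0.096), control 3 (0.107) or mutant 3 (0.0595).

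Fat1, a giant cadherin that acts on the actin cytoskeleton and growth control, read 10.25, 10.38 and 10.34 in controls against 10.10, 9.88 and 9.84 in mutants (-0.38 ± 0.08, 1.30-fold, adjusted p = 0.0269). Its call was lost without control 1 (adjusted p = 0.0623), control 2 (0.117), control 3 (0.109), mutant 2 (0.0523) or mutant 3 (0.0795). Fat4 and Dchs1, which bind each other as receptor and ligand, did not pass. Fat4 read 9.74, 9.93 and 9.88 in controls against 10.12, 9.39 and 9.79 in mutants, so mutant 1 was above all controls and mutant 2 below them. Dchs1 read 9.73, 9.71 and 9.70 in controls against 9.83, 9.60 and 9.88 in mutants (0.06 ± 0.08).

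Fat3, named after its values were seen, had 15 features, and the one used read 7.19, 7.02 and 7.10 in controls against 7.80, 7.14 and 7.58 in mutants (0.41 ± 0.15, adjusted p = 0.176). The difference was above 0 in 14 of the 15, from -0.09 to 0.44 with a median of 0.24, and 7 features lay wholly above and 1 wholly below the controls. They come from the same 6 arrays and 1 gene, so they are no further replicates. Fat2 (-0.18 ± 0.09) and Celsr3 (-0.04 ± 0.10) overlapped between groups and were likewise named after their values were seen.

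Of the 11 atypical cadherins and cadherin-related genes, 1 rose, 0 fell and 10 did not pass (9.09% called, near the 7.66% of all genes, median -0.03). Cdh13, T-cadherin, which lacks the cytoplasmic tail and is held by a lipid anchor, read 6.32, 6.07 and 6.23 in controls against 6.75, 6.49 and 6.74 in mutants (0.45 ± 0.09, 1.37-fold, adjusted p = 0.0253). It lost the call without control 2 (adjusted p = 0.0983), control 3 (0.0896), mutant 1 (0.0603) or mutant 3 (0.0809). Cdh16, a cadherin of kidney tubules also found in lung and thyroid, read 8.27, 8.28 and 8.21 in controls against 7.44, 8.35 and 8.04 in mutants. The mutants thus differed more among themselves (SD 0.46, n = 3) than from the controls (-0.31 ± 0.20, limma adjusted p = 0.463). Mutant 1 was lowest and mutant 2 highest. The lung epithelial markers as a list were at -0.96 relative to the control means in mutant 1, -0.66 in mutant 2 and -0.48 in mutant 3. Their part in the Cdh16 values was not tested.

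Cdhr4 read 7.03, 6.96 and 7.10 in controls against 7.09, 7.35 and 7.11 in mutants (0.16 ± 0.08, adjusted p = 0.362). Pcdh15, which pairs with Cdh23 in the tip links of inner ear hair cells, read 6.74, 6.40 and 6.55 in controls against 6.61, 6.31 and 6.69 in mutants on the feature used. Its other feature, dimmer and so not used by the rule, read 5.25, 5.28 and 5.19 in controls against 5.74, 5.70 and 6.25 in mutants, wholly above the controls (0.66), so the features of this gene disagreed. Cdh17, of intestine, was at -0.05 ± 0.06 and named after its value was seen. Cdh17 and the members not named so far in this group (Cdh23, Cdh26, Cdhr1, Cdhr2, Cdhr3 and Cdhr5) did not lie above the array median on every control array.

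Genes that work with the cadherins were counted by list. Of 17 adherens junction catenins and nectins, 1 fell and 0 rose (5.88% called, against 7.66% of all genes, median -0.04). It was Ctnnd2, the neural member of the p120 catenins, which bind the cadherin tail next to the membrane. Ctnnd2 read 9.28, 9.28 and 9.34 in controls against 8.28, 8.43 and 8.34 in mutants, having fallen 1.94-fold (-0.96 ± 0.06, adjusted p = 9.4e-05), and passed with any array left out. Of the 17 genes, 5 reached an unadjusted p under 0.05 in limma, as 19.8% of all genes did. The mutants lay wholly below the controls for 6 and wholly above for 0, against 12.6% and 13.4% of all genes.

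Of 8 desmosomal plaque genes, 3 fell, 1 rose and 4 did not pass (4 of 8 called, against 7.66% of all genes, median -0.20). Dsp, desmoplakin, the plakin that joins desmosomes to keratin, read 8.95, 9.06 and 9.02 in controls against 8.17, 8.11 and 8.14 in mutants. It fell 1.83-fold (-0.87 ± 0.06, adjusted p = 0.0001) and passed with any array left out. The other calls of this list were weaker. The desmosomal membrane protein gene Perp (-0.59 ± 0.14) lost its call without control 1, control 2, control 3 or mutant 1 (adjusted p 0.0892, 0.167, 0.147 and 0.0536). The plakin Evpl (-0.34 ± 0.08) lost it without control 1, control 2, control 3 or mutant 3 (adjusted p 0.144, 0.088, 0.154 and 0.0758). The plakin Ppl (0.27 ± 0.06) kept it only without mutant 2 (adjusted p 0.0229 there and 0.0768 to 0.147 elsewhere). Among the desmosomal genes of both lists the largest fall was thus that of a plaque gene, and the desmocollins rose.

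Of 14 partners of Fat, Dachsous and Celsr, 1 fell and 0 rose (7.14% called, near the 7.66% of all genes, median -0.01). It was the planar polarity receptor gene Fzd6 (-0.43 ± 0.08, adjusted p = 0.0162), whose call was lost without control 2 (adjusted p = 0.0743) or control 3 (0.0811). Of 13 transcription factors known to act on cadherin genes, Twist1 rose and Ovol2 and Grhl2 fell. The share called was 23.1%, against 7.66% of all genes, with a median of -0.04. Twist1, a mesenchymal factor known to repress Cdh1, was at 0.57 ± 0.10 (adjusted p = 0.013) and did not pass without control 3 (adjusted p = 0.0646). Ovol2 (-0.37 ± 0.07, adjusted p = 0.015) and Grhl2 (-0.35 ± 0.08, adjusted p = 0.0377) are factors of epithelia. Ovol2 did not pass without control 1 or control 2 (adjusted p 0.0689 and 0.0669), and Grhl2 passed only without mutant 2 (adjusted p 0.0167 there and 0.053 to 0.142 elsewhere). Of 6 measured proteases that cleave cadherins 0 passed in limma, against 7.66% of all genes. An unadjusted p under 0.05 in limma was reached by 1 of them, Adam17, and by 19.8% of all genes. Adam17 was at 0.15 ± 0.06 (adjusted p = 0.202) and Ncstn at -0.06 ± 0.06.

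**Figure D4:**
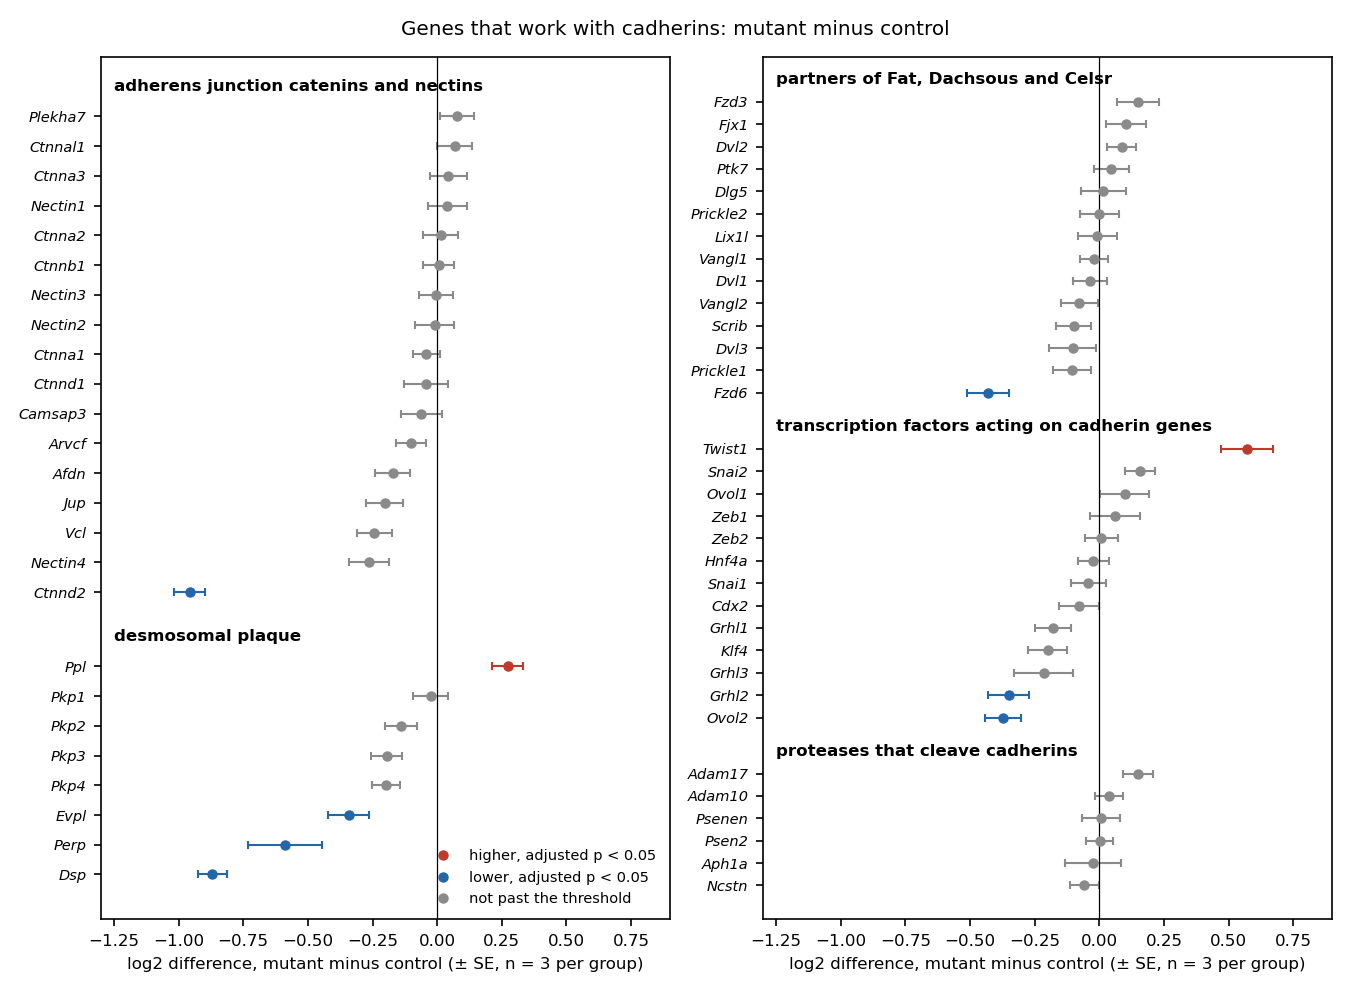
Log2 difference between mutant and control lungs for genes that work with cadherins, by list; points are the differences and bars the SE with 3 arrays per group, red and blue mark genes past the adjusted p of 0.05. Ctnnd2 and Dsp stand lowest, at -0.96 and -0.87, and most catenins, nectins and polarity genes lie near 0.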

How the data were processed

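Whole lungs of 3 control and 3 mutant embryos were measured on 6 single-colour arrays. The deposited values are log2 summaries from the robust multi-array average (RMA); the submitters' processing notes name oligo, RMA and limma, and no version or setting is given in the sources used here. Array medians lay between 6.70 and 6.79.

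Of 35556 features, 21797 carry 1 gene symbol. With 1 feature per gene, 19946 genes were tested with limma 3.58.1 in R 4.3.3 (genotype as the only term, all 6 arrays, two-sided, Benjamini-Hochberg over all genes, threshold 0.05). The p-values weigh the difference between groups against the spread between the 3 embryos of a group, moderated over all genes. The labels do not say whether the replicate numbers of the titles pair the samples, and the main fit did not use them. Deviations of same-numbered arrays correlated at -0.0686, 0.049 and 0.154, and those of other pairs at -0.151 to 0.079. So few arrays cannot settle whether they were paired.

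The members, subfamilies and other lists were chosen with earlier results of these data known. Values are given for members past the threshold, for the 3 of highest mean in each subfamily, for members at an end of a range, X-linked or in a marker list, for called partner genes (or the 2 of smallest p in a list with none) and for Foxp1, Foxp2 and Foxp4; other names are marked. Alternatives were renormalization, centring, a filter on dim genes, other feature rules, other moderation, array weights, the replicate block, each array left out and other thresholds; embryo sex was chosen as a covariate only after seeing the data. The fit was tested on simulated data.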

Additional observations from a re-analysis of the deposited data

How the results depend on the processing

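The 16 changed members became 8 when a change of at least 1.5-fold was also required (6 higher, 2 lower), and between 9 and 15 with 1 array left out. The 9 rises stayed between 6 and 10 under every setting run. The 7 falls became 4 with the replicate block, 2 with the fold requirement and 3 to 7 with 1 array left out (3 without control 1, control 2 or control 3). The partner genes called, 9 in all, became 3 with the fold requirement, 5 with sex as a covariate and 3 to 9 with 1 array left out, and all genes called, 1528, became 549 with the fold requirement and 774 to 1745 with 1 array left out. All genes called were 774 to 876 without a control and 1232 to 1745 without a mutant, though each of these fits leaves the same number of arrays. The median SD over all genes was 0.0611 in controls and 0.0952 in mutants. The cause of these shifts was not tested.

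For 31 members (the 16 called and, of the others, those among the 3 of highest mean in a subfamily), 263 of 276 values under settings that keep all arrays stayed on their side of the threshold, and none of the called members changed sign. Small differences that did not pass did change sign: Cdh24 from 0.02 to -0.02 when normalized again and to -0.0039 when centred, Cdh5 from -0.03 to 0.02 with array weights, and Pcdh15 from -0.03 to 0.31 with its features averaged and to 0.07 with array weights. With 1 array left out these 3 genes and Fat4, Pcdhb22 and Pcdhb8 also changed sign in at least 1 fit. The replicate block ended the calls of Celsr2, Fat1, Pcdh11x and Pcdh18 (adjusted p 0.0592, 0.0657, 0.0644 and 0.118). Centring ended Pcdh18 (0.0811), and testing all features or array weights ended Pcdh11x and Pcdh18 (0.0516 and 0.0521, 0.0513 and 0.0556). A trend with robust moderation ended Pcdh11x (0.0756), and array weights added Cdh1 and Cdh3 (0.0347 and 0.0492). Without the dimmest genes Cdh10, Dsc3 and Pcdh20 were not tested, which left 13 called. No scaling moved the median of all genes by 0.1. The arrays carry no detection calls, so whether a dim member was expressed is not known here. Near the floor of the array, falls also have little room to show.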

Other observations

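Some features carry several symbols and so belong to no single member. The feature annotated with 14 symbols of the alpha cluster of protocadherins gave 5.97, 5.98 and 6.04 for the 3 controls against 6.05, 5.97 and 6.01 for the mutants, differing by 0.02 with overlap. The feature shared by the 3 desmoglein 1 genes gave 4.98, 4.93 and 4.997 for the controls against 5.44, 5.31 and 5.02 for the mutants. All of its mutant values lay above the controls (0.29), as those of Dsg1b and Dsg1c did on their own features. These features were not tested.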
